A study of Mus musculus with 4 samples.

Results

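The genes of the synaptic vesicle release and SNARE machinery were examined in RNA of the mouse trigeminal ganglion, which holds the cell bodies of the face's sensory neurons with their glia. Members were the rows of the deposited expression table whose gene symbol belongs to the synaptotagmin (Syt), syntaxin (Stx), VAMP, SNAP, synapsin (Syn), SV2, complexin (Cplx), RAB3, RIM (Rims), UNC13 or syntaxin-binding protein (Stxbp) series, by symbol alone. This gave 72 of 56035 rows. Samples were 2 libraries from mice carrying K823R, a lysine-to-arginine change in the capsaicin receptor TRPV1, and 2 libraries from wild-type (WT) littermates. The K823R mice are labelled transgenic and are called knock-in in the protocol. All mice were male C57BL/6 animals of 8 weeks, and no other allele or treatment is named for either group. The protocol mentions 2 pairs of ganglia without saying whether this is per library or in all, so how many animals stand behind a library is not given in the sources used here, and the p-values reflect only library-to-library spread, possibly technical. The series concerns SUMOylation of TRPV1, itch and the H1 histamine receptor, and the comparison here asks whether transcripts of the release machinery differ between the genotypes.

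Transmitter and peptide release depends on SNARE proteins. A vesicle SNARE (VAMP) zips together with a syntaxin and a SNAP protein of the target membrane and pulls the membranes into fusion. UNC13 opens syntaxin, RIM and RAB3 dock the vesicle at the release site, complexin clamps the partly zipped SNAREs, and synaptotagmin releases the clamp when calcium binds. Synapsins tether reserve vesicles, and SV2 proteins are glycoproteins of the vesicle membrane that act with synaptotagmin. In the trigeminal ganglion the neuronal cell bodies make these proteins for nerve endings in the skin and for terminals in the brainstem, and release of neuropeptides from the endings contributes to neurogenic inflammation.

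The values are TPM, a relative abundance per transcript length that sums to an equal total in every library, so that levels of different genes can be compared and the read depth of each library is unknown. Each library listed between 15131 and 15371 genes at 1 TPM or more. Trpv1 itself was at 40.9 and 35.0 TPM in K823R and at 39.2 and 30.6 TPM in WT, and a codon change need not alter a transcript's level, so this does not check the labels. Defining markers of sensory ganglion neurons were present in every library, for example the neuronal tubulin Tubb3 at 1796 to 2263 TPM and the transcription factor Isl1 at 69.9 to 96.9 TPM. WT replicate 1 stood apart for markers of other cells. The 15 tested markers of central glia summed to 706 and 829 TPM in K823R and to 283 and 665 TPM in WT replicates 1 and 2, with the oligodendrocyte gene Mog listed at 0 in WT replicate 1. The 12 fibroblast and meningeal markers summed to 3098 and 1105 TPM in K823R and to 518 and 1281 TPM in WT, and the 12 macrophage markers to 113 and 149 TPM in K823R and to 76.3 and 118 TPM in WT. Of the pituitary markers, the hormone genes Gh and Prl were higher in K823R. Gh was at 17.08 and 12.03 TPM in K823R and at 0.25 and 1.15 TPM in WT. Prl was at 3.05 and 3.56 TPM in K823R and at 0 and 0.11 TPM in WT. Pomc, Chga and Scg2 overlapped between genotypes. Tshb was at 0.90 and 0.52 TPM in K823R and at 0.85 and 0.52 TPM in WT. Cga was at 0.76 and 0.36 TPM in K823R and at 0 and 0.33 TPM in WT. Pitx1 was above 0 only in WT (0.03 and 0.18 TPM) and Pou1f1 only in K823R replicate 2 (0.07 TPM). Lhb, Fshb and Ghrhr were listed at 0 in every library. All 15 central glial markers had higher means in K823R, by a median of 1.11 on the log2 scale, but the central neuron genes Neurod2, Neurod6, Tbr1, Gad2, Slc32a1 and Grin2b did not exceed 0.07 TPM in any library. The part of these other cells in the results was not tested.

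Promoter windows are shown for some members that the results turn on and for those that hold a recognised neuronal element. RefSeq windows on GRCm38.p6, from 250 bases before to 50 after a transcription start, were found for 56 of the members, as 72 windows. Sv2a and Syt2 are shown because they had some of the smallest p-values of all members. Cplx2 had a smaller p than Syt2, but its window, with 53.3% G or C and none of the motifs marked here, is not shown. Syn1 and Unc13a are shown because they were the members with the left part of the RE1 element, the site of the neuronal gene repressor REST. Capitals mark the GC box GGGCGG, the CCAAT box CCAAT, the cyclic AMP response element TGACGTCA and the left part of RE1, TTCAGCACC, searched on both strands, so that a match on the opposite strand appears as its reverse complement. No marked motifs overlap, though a CCAAT and a GC box lie next to each other in the downstream Syt2 window.
Sv2a (chr3:96180977-96181276, plus strand): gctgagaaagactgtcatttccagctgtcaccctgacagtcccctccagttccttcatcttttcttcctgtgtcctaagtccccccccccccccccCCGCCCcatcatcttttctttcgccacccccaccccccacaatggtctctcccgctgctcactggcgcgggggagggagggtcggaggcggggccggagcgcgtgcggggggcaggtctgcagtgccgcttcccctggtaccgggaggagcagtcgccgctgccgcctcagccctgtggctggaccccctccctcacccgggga
Syt2, upstream start (chr1:134646362-134646661, plus strand): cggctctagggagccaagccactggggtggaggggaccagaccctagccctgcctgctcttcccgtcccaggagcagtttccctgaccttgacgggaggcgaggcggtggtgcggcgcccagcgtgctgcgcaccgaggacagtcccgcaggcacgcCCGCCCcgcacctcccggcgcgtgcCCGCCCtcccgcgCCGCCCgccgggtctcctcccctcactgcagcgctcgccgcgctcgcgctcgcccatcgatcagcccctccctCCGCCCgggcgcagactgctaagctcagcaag
Syt2, downstream start (chr1:134709050-134709349, plus strand): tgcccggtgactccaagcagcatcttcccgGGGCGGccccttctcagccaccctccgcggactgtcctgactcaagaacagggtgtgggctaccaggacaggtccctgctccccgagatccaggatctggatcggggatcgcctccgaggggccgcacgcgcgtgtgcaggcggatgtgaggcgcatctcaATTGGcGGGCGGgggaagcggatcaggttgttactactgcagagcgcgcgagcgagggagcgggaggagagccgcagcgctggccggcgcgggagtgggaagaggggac
Syn1 (chrX:20920869-20921168, minus strand): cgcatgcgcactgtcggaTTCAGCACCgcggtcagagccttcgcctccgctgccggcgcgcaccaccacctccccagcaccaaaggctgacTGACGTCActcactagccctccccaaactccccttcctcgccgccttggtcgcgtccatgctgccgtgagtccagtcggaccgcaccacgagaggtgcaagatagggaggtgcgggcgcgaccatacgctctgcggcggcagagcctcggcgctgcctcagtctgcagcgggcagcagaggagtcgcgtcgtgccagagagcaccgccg
Unc13a (chr8:71671708-71672007, minus strand): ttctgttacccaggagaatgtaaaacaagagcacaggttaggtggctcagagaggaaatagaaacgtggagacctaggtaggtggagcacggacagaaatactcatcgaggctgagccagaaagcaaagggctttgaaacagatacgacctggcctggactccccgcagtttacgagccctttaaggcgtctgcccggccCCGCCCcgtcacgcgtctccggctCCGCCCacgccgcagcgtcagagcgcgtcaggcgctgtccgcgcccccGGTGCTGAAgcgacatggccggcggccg

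Member windows were rich in G and C. Their median content was 62.2% G or C, against 52.7% over the 32851 windows of all genes. The GC box was found in 66.7% of member windows and in 35.7% of all windows. The TATA box TATAAA was found in 6.94% of member windows and in 13.6% of all, and the CCAAT box in 30.6% and 37.4%. The cyclic AMP response element was in 2 member windows (2.78%, against 1.79% of all), those of Syn1 and Stxbp3, and the left part of RE1 also in 2 (2.78%, against 0.371% of all). These are letters in a window and no measure of binding.

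The ganglion carried transcripts of all 11 families at widely different levels. Of the 72 members, 17 averaged at least 100 TPM over the 4 libraries, 34 between 10 and 100 TPM, 14 between 1 and 10 TPM and 7 under 1 TPM. Snap25, the neuronal SNAP, was the most abundant at 1109 and 1069 TPM in K823R and 1246 and 1133 TPM in WT, which placed it at rank 96 of the 15390 genes tested. The neuronal complexin Cplx1 followed at 1019 and 981 TPM in K823R and 1023 and 924 TPM in WT. Next came Rab3a, the main vesicle GTPase of neurons, at 610 and 602 TPM in K823R and 617 and 548 TPM in WT, and Vamp1, a vesicle SNARE, at 554 and 527 TPM in K823R and 602 and 533 TPM in WT. For Cplx1, Rab3a and Vamp1 the libraries of the genotypes overlapped, and for Snap25 they did not.

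**Figure D1:**
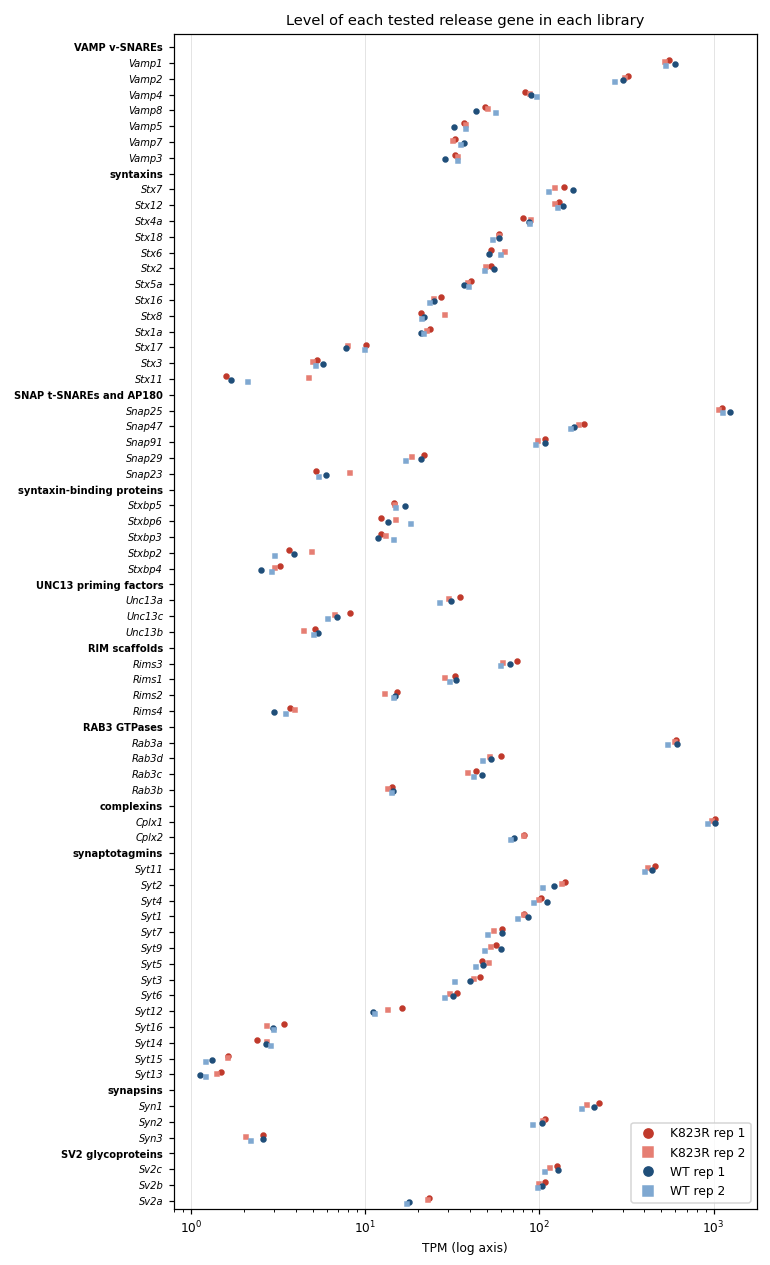
The 63 rows are tested members and each point is its TPM in 1 library on a logarithmic axis, with K823R libraries in red and WT libraries in blue, grouped by family. Snap25 and Cplx1 lie near 1000 TPM in all 4 libraries, and the points of most genes lie close together whatever the genotype.

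Several families were led by 1 gene. Cplx1 held 92.4% to 93.5% of complexin TPM in the 4 libraries, Rab3a 83.9% to 85.3% of RAB3, and Snap25 77.9% to 81.0% of the SNAP group. Unc13a, the main priming factor of fast synapses, held 70.6% to 73.1% of UNC13, and Syn1 63.6% to 66.7% of the synapsins. Syntaxins were spread more evenly. The most abundant were the endosomal Stx7 and Stx12, with means of 133 and 129 TPM, while Stx1a, a syntaxin of the neuronal plasma membrane, had 22.2 TPM. Syt11, which does not bind calcium, held 42.5% to 44.8% of synaptotagmin TPM. A stretch of 283 bases of Syt11 matches 1500004A13Rik, which averaged 79.7 TPM, at 99.6% identity, and its part in the Syt11 value was not tested. Among the calcium sensors for fast release, Syt2 had a mean of 125 TPM and Syt1 one of 80.8 TPM. Sv2c and Sv2b, with means of 119 and 102 TPM, stood well above Sv2a, with 20.4 TPM.

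Members under 1 TPM were not tested. Cplx3, a complexin of retinal ribbon synapses, was listed at 0 in every library, and Cplx4, Stx19, Syt10 and Vamp9 did not exceed 0.24 TPM in any. Syt8 reached 0.43 TPM in K823R replicate 2 and was listed at 0 in the other libraries. Syt17 was at 0.63 and 0.34 TPM in K823R and at 0.45 and 1.03 TPM in WT. None of the 65 members tested had a mean under 1 TPM in either genotype, so no member entered the test through 1 group only.

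No member passed the test between genotypes. Differences are on the log2(TPM + 1) scale, K823R minus WT, and the test was limma with Benjamini-Hochberg adjustment over the 15390 genes that averaged 1 TPM or more. Of the 65 members, 0 had an adjusted p below 0.05, against a background of 0.00650% of all genes tested (1 gene, higher in K823R), and adjusted p ran from 0.918 to 0.997. An unadjusted p below 0.05 was found for 4 members, all higher in K823R, which is 6.15% of them beside 4.76% of all genes (2.57% higher and 2.19% lower). In all, 45 members were higher in K823R (69.2%, against 57.4% of all genes) and 20 lower, with a median log2 difference of 0.06, beside 0.03 for all genes. For 18 members (27.7%) the libraries of the genotypes did not overlap, with 13 above and 5 below, beside 34.0% of all genes (19.4% above and 14.6% below). Log2 differences ran from -0.20 to 0.41, and 95% intervals reached a median of 0.29 to either side.

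**Figure D2:**
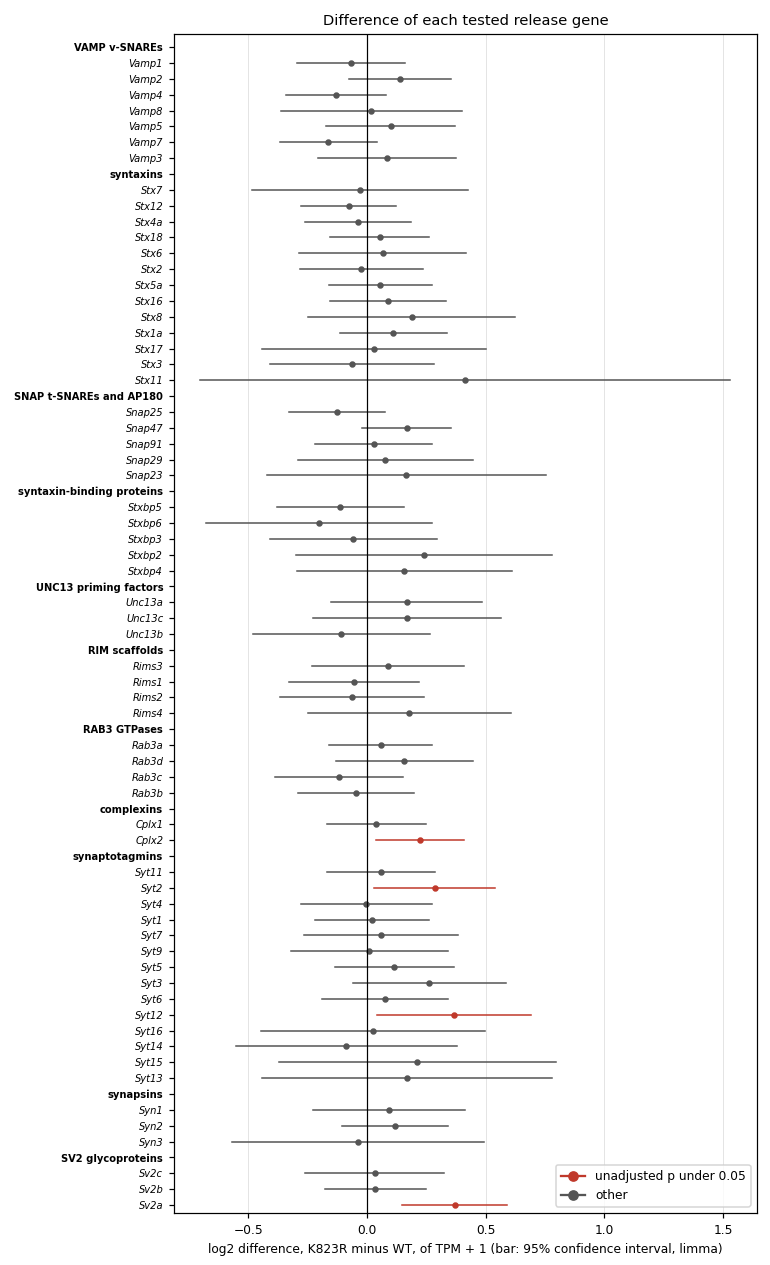
Points are log2 differences of 63 tested members, K823R minus WT, of TPM + 1 and bars are 95% confidence intervals from limma, with the 4 members of unadjusted p below 0.05 in red. All intervals but those 4 include 0, and Stx11 has the widest.

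The balance of higher and lower members moved with single libraries. Without WT replicate 2, 33 members were higher, beside 49.3% of all genes, and the median log2 difference was 0.00056, and without K823R replicate 1, 34 were higher, beside 50.6% of all genes. Without WT replicate 1, 46 were higher with a median of 0.12, beside 59.9% of all genes, and without K823R replicate 2, 46 were higher, beside 60.2%. Such fits leave 1 library in a genotype, so no count of members with a small unadjusted p is given for them. With single libraries left out, log2 differences ran from 0.35 to 0.39 for Sv2a and 0.2 to 0.25 for Cplx2. They ran from 0.24 to 0.49 for Syt12 and 0.18 to 0.39 for Syt2. Many members, mainly abundant ones, also moved with the markers of sensory neurons between libraries of the same genotype. Replicate 1 was above replicate 2 in K823R and also in WT for 40 members (61.5%), beside 38.2% of all genes. This held for 18 of 21 tested markers of sensory ganglion neurons. At a mean of 10 TPM or more it held for 70.6% of members, beside 45.3% of all genes. Under 10 TPM it held for 28.6% of members, and the share of all genes at that level was not computed. All genes also showed it less often over all levels together (38.2%) than at 10 TPM or more (45.3%). The median centred log2 level of the members was 0.06 and -0.02 in K823R and 0.02 and -0.09 in WT. All genes tested had the same order of libraries over a smaller range, with 0.03 and -0.01 in K823R and 0.01 and -0.04 in WT. The level of the sensory neuron markers was 0.08 and -0.01 in K823R and 0.09 and -0.13 in WT. When libraries were scaled to those markers, a setting chosen after seeing the data, 35 of 65 members were higher in K823R with a median of 0.0064, beside 43.6% of all genes. In bulk tissue, fewer cells of a type and less RNA per cell cannot be told apart.

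**Figure D3:**
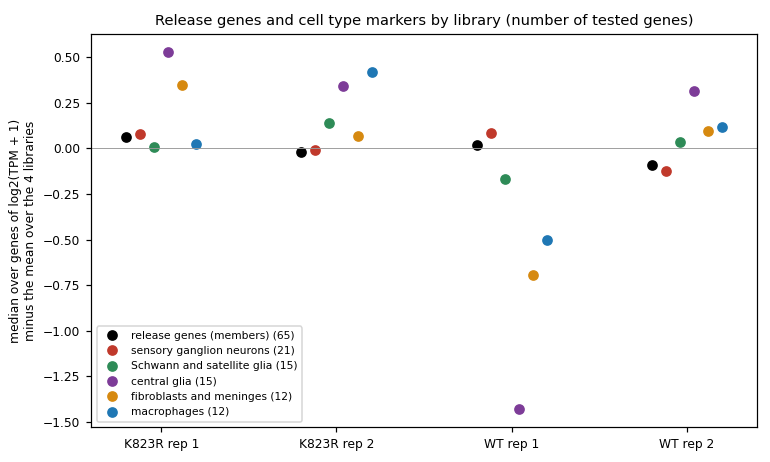
Each point is the median over the tested genes of a list of log2(TPM + 1) in a library, minus the gene's mean over the 4 libraries. Members lie between -0.09 and 0.06 and sensory neuron markers between -0.13 and 0.09, while central glial markers stand at -1.43 in WT replicate 1. All genes tested, which are not plotted, lie between -0.04 and 0.03.

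Vamp1 was the most abundant vesicle SNARE and Vamp2 the next in all 4 libraries. Of 7 tested VAMP genes, 4 were higher (57.1%, beside 57.4% of all genes) and 3 lower in K823R, and 0 passed. Vamp2, the vesicle SNARE of most central synapses, was at 321 and 309 TPM in K823R and at 302 and 271 TPM in WT. The K823R pair lay above the WT pair, with a log2 difference of 0.14 (SE 0.08, 95% interval -0.08 to 0.35, limma adjusted p = 0.918). That difference was 0.22 without WT replicate 1 and 0.061 without WT replicate 2. Vamp7, which serves lysosome exocytosis and neurite growth, was at 32.6 and 31.7 TPM in K823R and at 36.6 and 35.5 TPM in WT. Here both K823R libraries lay below (log2 difference -0.16, SE 0.08, limma adjusted p = 0.918). The trans-Golgi and endosomal Vamp4 was at 82.1 and 87.6 TPM in K823R and at 89.7 and 96.2 TPM in WT, again without overlap (log2 difference -0.13, SE 0.08, limma adjusted p = 0.918, and -0.18 to -0.08 with single libraries left out). Vamp3, Vamp5 and Vamp8, which act in endosomal and non-neuronal traffic, had log2 differences of 0.08, 0.10 and 0.02.

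Within the syntaxins, 9 of 14 tested were higher in K823R (64.3%, beside 57.4% of all genes) and 0 passed. Stx1a was at 23.6 and 22.6 TPM in K823R and at 20.9 and 21.8 TPM in WT. It was the syntaxin with the smallest p (log2 difference 0.11, SE 0.09, 95% interval -0.11 to 0.34, limma adjusted p = 0.918). It was also the only one of the 14 whose genotypes did not overlap (7.14%, beside 34.0% of all genes). Stx7 was at 138.4 and 122.8 TPM in K823R and at 156 and 113 TPM in WT, so that WT held both the highest and the lowest library (log2 difference -0.03, SE 0.17). Stx11, a syntaxin of immune cells, stood apart in K823R replicate 2 and is named after its values were seen. It was at 1.59 and 4.77 TPM in K823R and at 1.70 and 2.12 TPM in WT (log2 difference 0.41, SE 0.42). Macrophage markers were also highest in K823R replicate 2 by summed level and for 10 of the 12 genes, while Tyrobp and Adgre1 were highest in WT replicate 2. The part of such cells in the Stx11 value was not tested.

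Among the SNAP group, the neuronal Snap25 was lower in K823R and the other members were higher, none past the test. The Snap25 mean was 1089 ± 28.9 TPM in K823R and 1190 ± 79.6 TPM in WT (SD, n = 2 each). On the log2 scale this was -0.13 (SE 0.08, 95% interval -0.33 to 0.08, limma adjusted p = 0.918), and it was -0.058 without WT replicate 1 and -0.19 without WT replicate 2. Snap47, a SNAP lacking a membrane anchor, was at 180 and 170 TPM in K823R and at 158 and 152 TPM in WT, without overlap (log2 difference 0.17, SE 0.07, limma adjusted p = 0.918). Its exons share 307 bases with Jmjd4 on the opposite strand, which averaged 8.61 TPM. Snap23, the SNAP of non-neuronal cells, was at 5.18 and 8.16 TPM in K823R and at 5.98 and 5.45 TPM in WT, with K823R replicate 2 again the highest. Snap91 (AP180), a clathrin adaptor of vesicle retrieval despite its symbol, and Snap29, a SNARE of autophagosome fusion, had log2 differences of 0.03 and 0.08.

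None of the factors that hold, open and dock the SNAREs passed the test. Stxbp2, a syntaxin-binding protein of immune and epithelial cells, was at 3.65 and 4.92 TPM in K823R and at 3.89 and 3.03 TPM in WT (log2 difference 0.24, SE 0.21). Stxbp6 (amisyn), which competes with VAMP for syntaxin, was at 12.3 and 14.9 TPM in K823R and at 13.5 and 18.3 TPM in WT (log2 difference -0.20, SE 0.18). Libraries of the genotypes overlapped for both. Unc13a was at 35.0 and 30.3 TPM in K823R and at 31.0 and 26.8 TPM in WT (log2 difference 0.17, SE 0.12), which also overlap, and 495 of its exonic bases are shared with Colgalt1, at 35.7 TPM on the opposite strand. Of the RIM scaffolds, Rims3 was at 74.1 and 62.0 TPM in K823R and at 67.5 and 60.0 TPM in WT, while Rims4 averaged 3.82 ± 0.191 TPM in K823R and 3.26 ± 0.368 TPM in WT (SD, n = 2 each). Rims4 did not overlap between genotypes, with a log2 difference of 0.18 and SE 0.16. In the RAB3 family, Rab3d was at 59.9 and 51.9 TPM in K823R and at 52.6 and 47.3 TPM in WT (log2 difference 0.16, SE 0.11), and Rab3c at 43.32 and 38.67 TPM in K823R and at 47 and 42.13 TPM in WT (log2 difference -0.12, SE 0.10). Every adjusted p by limma in these 4 families was at least 0.918. With single libraries left out, log2 differences ran from 0.067 to 0.42 for Stxbp2, 0.066 to 0.27 for Unc13a, 0.091 to 0.27 for Rims4, 0.057 to 0.26 for Rab3d and -0.2 to -0.038 for Rab3c.

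Of the 4 members with a limma unadjusted p below 0.05, 3 were complexins or synaptotagmins. They were 1 of the 2 complexins tested and 2 of the 14 synaptotagmins tested, beside 4.76% of all genes. Whether small p-values gathered in these families was not tested. Cplx2, the second neuronal complexin (chromosome 13, 54371349 to 54383917, GRCm38), was at 81.9 and 81.2 TPM in K823R and at 71.1 and 68.3 TPM in WT. Both K823R libraries were higher, by 17.0% on the means, with a log2 difference of 0.22 (SE 0.07, 95% interval 0.04 to 0.41, limma adjusted p = 0.918). Syt2, the fast calcium sensor found in hindbrain and at nerve-muscle junctions (chromosome 1, 134646677 to 134762593), was at 140 and 134 TPM in K823R and at 121 and 104 TPM in WT. Its mean was 21.9% higher in K823R, with a log2 difference of 0.29 (SE 0.10, 95% interval 0.03 to 0.54, limma adjusted p = 0.918). Without WT replicate 2 that difference was 0.18, and without WT replicate 1 it was 0.39. Syt12, a synaptotagmin that does not bind calcium (chromosome 19, 4445908 to 4477447), was at 16.2 and 13.5 TPM in K823R and at 11.1 and 11.4 TPM in WT. Its log2 difference was 0.37 (SE 0.12, 95% interval 0.04 to 0.69, limma adjusted p = 0.918). It was 0.24 without K823R replicate 1 and 0.49 without K823R replicate 2. Syt12 shares 950 exonic bases with a transcript on the opposite strand that averaged 0.168 TPM.

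Of the 14 synaptotagmins tested, 12 were higher in K823R (85.7%, beside 57.4% of all genes), 5 did not overlap (35.7%, beside 34.0% of all genes), all of them above, and 0 passed. Syt3, a calcium-binding synaptotagmin, was at 45.3 and 42.2 TPM in K823R and at 40.1 and 32.8 TPM in WT (log2 difference 0.26, SE 0.12, limma adjusted p = 0.918, and 0.40 without WT replicate 1). Syt13 and Syt15, both under 2 TPM, also did not overlap. Syt1, the main fast sensor of forebrain synapses, was at 81.68 and 80.99 TPM in K823R and at 85.51 and 75.02 TPM in WT, so that both K823R libraries lay between the WT libraries (log2 difference 0.02, SE 0.09). Syt11 was at 461 and 420 TPM in K823R and at 442 and 403 TPM in WT (log2 difference 0.06, SE 0.09). Syt7, the slow high-affinity sensor, and Syt4, a synaptotagmin of dense-core vesicles, had log2 differences of 0.06 and -0.0019.

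Of the vesicle membrane proteins, Sv2a had the smallest p of all members. SV2A is the binding site of the antiepileptic drug levetiracetam. Sv2a (ENSMUSG00000038486, chromosome 3, 96181151 to 96195521, plus strand) was at 23.1 and 23.0 TPM in K823R and at 17.9 and 17.4 TPM in WT. The SD was 0.0990 TPM in K823R and 0.375 TPM in WT (n = 2 each), and the genotypes stood clear of each other. The mean was 30.7% higher in K823R, with a log2 difference of 0.37 (SE 0.08, 95% interval 0.15 to 0.59). It did not pass over all genes (limma unadjusted p = 0.00852, adjusted p = 0.918). The difference was 0.34 to 0.39 under every setting tried but the scaling to sensory neuron markers, where it was 0.32, and it was 0.39 without WT replicate 1. Its paralogues are given beside it, and the contrast between them was not tested. Sv2b was at 108 and 99.0 TPM in K823R and at 103 and 98.2 TPM in WT, and Sv2c at 126 and 115 TPM in K823R and at 128 and 108 TPM in WT, with log2 differences of 0.04 and 0.03 (SE 0.08 and 0.11). Of the synapsins, Syn1 overlapped between genotypes and Syn2 did not. Syn1 was at 220 and 186 TPM in K823R and at 205 and 176 TPM in WT (log2 difference 0.09, SE 0.12), and Syn2 at 107 and 104 TPM in K823R and at 103 and 92.3 TPM in WT (log2 difference 0.12, SE 0.08, and 0.039 to 0.2 with single libraries left out). Syn3, at 2.57 and 2.06 TPM in K823R and at 2.59 and 2.21 TPM in WT, shares 1733 exonic bases with Timp3, which averaged 152 TPM on the opposite strand, so its value is uncertain.

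**Figure D4:**
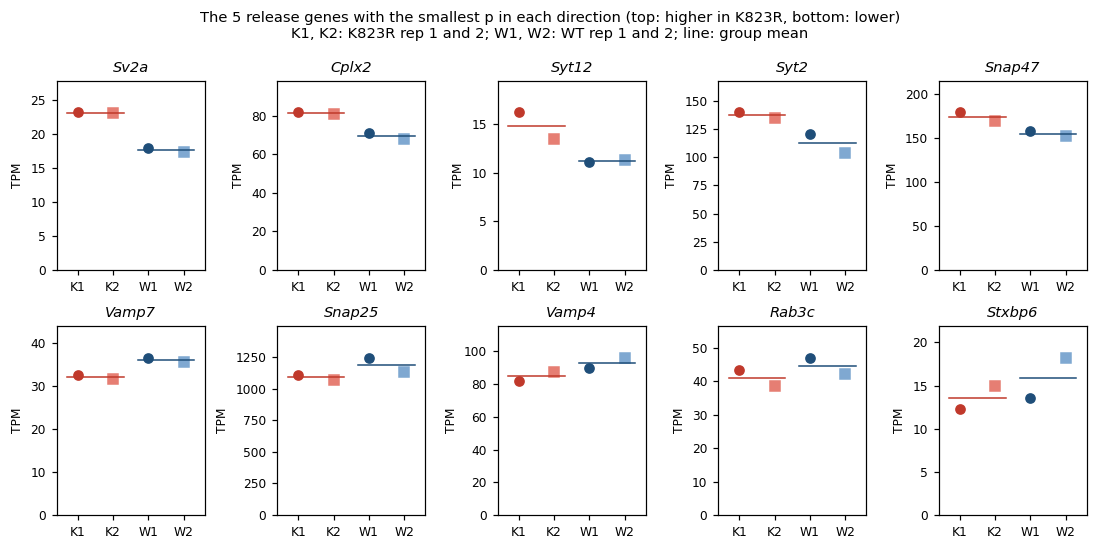
Panels show TPM in each library, from 0, for the 5 members of smallest p that were higher in K823R (top) and the 5 that were lower (bottom), with lines at the group means. The genotypes do not overlap in any panel of the top row, and in the bottom row they overlap for Rab3c and Stxbp6.

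Ratios of paired genes within a library do not depend on how TPM is scaled, and 6 such ratios were compared, of which 5 are given. Vamp1 over Vamp2 was 1.72 and 1.71 in K823R and 1.99 and 1.97 in WT. Syt1 over Syt2 was 0.584 and 0.603 in K823R and 0.708 and 0.721 in WT. Cplx1 over Cplx2 was 12.4 and 12.1 in K823R and 14.4 and 13.5 in WT. In these 3 pairs the K823R ratios lay below the WT ratios without overlap, with log2 differences of -0.21, -0.27 and -0.19 beside a spread within genotypes of 0.01, 0.03 and 0.05 (pooled SD). The exact two-sided permutation test gave p = 0.333 for each of them, the smallest p that 2 libraries against 2 allow. After adjustment over the 6 pairs it was 0.666. Of all single genes tested, 34.0% did not overlap either, and no such share was computed for ratios. Syt2 and Cplx2 had a limma unadjusted p below 0.05, so their ratios repeat those values in part. Each SD rests on 2 libraries a genotype. Snap25 over Snap23 was 214 and 131 in K823R and 208 and 208 in WT, and Syn1 over Syn2 was 2.05 and 1.78 in K823R and 1.98 and 1.91 in WT. These overlapped (exact permutation p = 1.00 each).

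**Figure D5:**
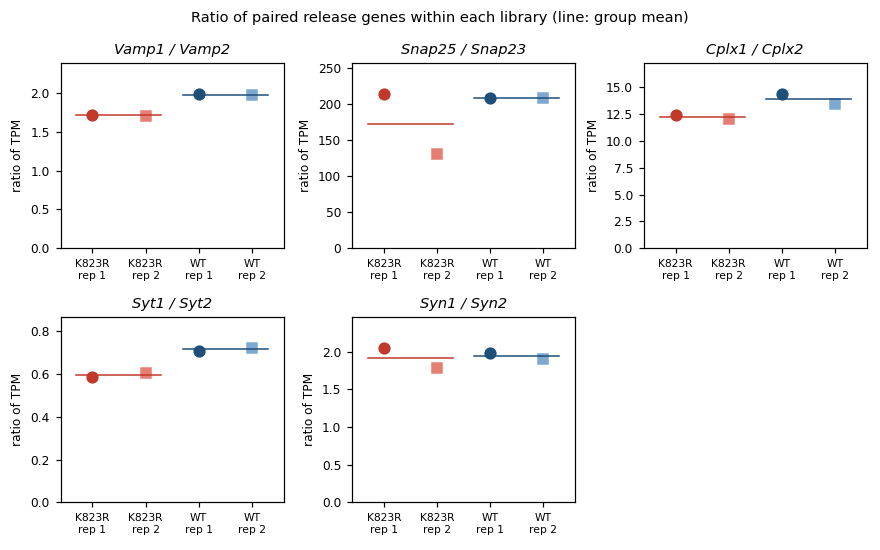
Each panel gives the ratio of TPM of 2 members in each library, from 0, with lines at the group means. Vamp1 over Vamp2, Cplx1 over Cplx2 and Syt1 over Syt2 are lower in both K823R libraries than in both WT libraries, and the other ratios overlap.

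Partners of the release machinery outside the members were taken from lists of known genes. Of 72 tested genes in 5 lists (SNARE recycling, active zone scaffold, priming and calcium sensor partners, other vesicle membrane proteins and vesicle endocytosis), 0 passed by limma over all genes, 49 were higher (68.1%, beside 57.4% of all genes) and 23 lower in K823R, and 3 had an unadjusted p below 0.05 (4.17%, beside 4.76% of all genes). The median log2 difference was 0.05. Synpr (synaptoporin), a vesicle membrane protein, was at 127 and 118 TPM in K823R and at 147 and 141 TPM in WT, without overlap (log2 difference -0.23, SE 0.07, limma adjusted p = 0.918). Syngr2, a synaptogyrin of many cell types, was at 19.9 and 22.0 TPM in K823R and at 17.8 and 15.8 TPM in WT (log2 difference 0.30, SE 0.11). Itsn1, a scaffold of endocytosis, was at 36.2 and 35.4 TPM in K823R and at 29.4 and 31.2 TPM in WT (log2 difference 0.23, SE 0.08).

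By list, 10 of 12 active zone genes were higher in K823R (median log2 difference 0.06), as were 13 of 16 other vesicle proteins (0.08). So were 16 of 23 endocytosis genes (0.03), 8 of 17 priming partners (-0.03) and 2 of 4 SNARE recycling genes (0.0018). Of all genes, 57.4% were higher, with a median of 0.03. The RAB3 effector Rph3a was at 183 and 159 TPM in K823R and at 154 and 139 TPM in WT, and the synaptotagmin-like Sytl3 at 20.9 and 24.4 TPM in K823R and at 19.8 and 18.8 TPM in WT. Log2 differences were 0.22 for both (SE 0.10 and 0.11), the same as for the active zone gene Git2 at 26.37 and 22.98 TPM in K823R and 19.94 and 22.24 TPM in WT. With single libraries left out, those of Rph3a, Sytl3 and Git2 ran from 0.11 to 0.32. The scaffold Erc1 (0.16) and the endocytic Pacsin1 (0.17) did not overlap between genotypes either. The SNARE-recycling adaptors Napa and Napb (alpha- and beta-SNAP) had log2 differences of 0.06 and -0.06.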

How the data were processed

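Poly(A) RNA of trigeminal ganglia was sequenced in paired reads, per the labels' protocols. The tools listed in the submitters' processing notes are fastp 0.19.5, HISAT2, RSEM and edgeR, with the build GRCm38.p6 and no roles. No source used here gives the annotation release, filters or strand setting. The authors deposited TPM per library. TPM keeps no depth, so no counting interval is given, and a rise of abundant transcripts lowers the rest.

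Genes averaging 1 TPM or more were tested with limma 3.58.1 (R 4.3.3) on log2(TPM + 1) of all 4 libraries, with a variance trend and a two-sided threshold of 0.05 on adjusted p. Its variance estimates rest on 2 residual and 2.67 prior degrees of freedom. The 1 TPM added before the log understates changes of low genes. The script was tested on simulated data. Members and lists were chosen with earlier results of these data known. Named genes were the most abundant and the smallest p of each family, the 5 of smallest p in each direction, the paired genes and 2 per partner list, and others named were picked after their values were seen. Coordinates and exon overlaps come from GENCODE M21 on GRCm38, and copies (95% identity over 200 bases) from BLAST 2.17.0. Python 3.11.15, scipy 1.17.1 and matplotlib 3.10.9 served for the rest. Of the members, 2 enter all counts but their own values are not reported here.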

Additional observations from a re-analysis of the deposited data

How the results depend on the processing

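The number of members past the threshold was 0 under all 14 alternatives. Over all genes the 1 call became 2 where a mean of 10 TPM was required and 0 with no filter, with no variance trend, with a replicate block or with any single library left out. Of 65 members tested, the count with a limma unadjusted p below 0.05 was 2 with no variance trend, beside 4.80% of all genes. It was 2 when scaled to sensory neuron markers (beside 3.89%), an alternative added after seeing the data. It was 6 with the replicate block (5.95%), upper-quartile scaling (5.27%) and quantile normalization (5.47%). With median-of-ratios scaling it was 5 (5.36%). Vamp7, lower in K823R, was among those counted under upper-quartile, quantile and median-of-ratios scaling. Replicate deviations correlated at 0.05 between genotypes over all tested genes and at 0.35 over the members, there are only 2 numbers, and the labels do not pair the numbers. Members higher in K823R ranged from 33 to 46 with single libraries left out, and their median log2 difference from 0.00056 to 0.12. With 2 libraries a genotype and no read depth, differences smaller than the intervals could not be detected. Of 515 single-gene values recomputed, 20 changed direction, all of genes whose intervals include 0, and the cause was not tested. They include, under the sensory neuron scaling, -0.012 for Cplx1, -0.02 for Sv2c and -0.03 for Syt1, and, under median-of-ratios scaling, -0.00076 for Syt1. With single libraries left out the log2 difference was -0.033 to 0.11 for Cplx1, -0.027 to 0.14 for Rab3a, -0.039 to 0.22 for Rims3, -0.12 to 0.45 for Snap23, -0.26 to 0.2 for Stx7 and -0.41 to 0.00056 for Stxbp6. It was -0.089 to 0.15 for Sv2c, -0.028 to 0.21 for Syn1, -0.071 to 0.12 for Syt1, -0.0071 to 0.13 for Syt11, -0.16 to 0.019 for Vamp1 and -0.055 to 0.18 for Napa under the same omissions.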
